A study of Mus musculus with 48 samples.

Results

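The keratin associated protein genes (Krtap genes) of mouse skin were followed through a study of preventing alopecia areata, an autoimmune hair loss, in C3H/HeJ mice with inhibitors of the IL-15 pathway. Members were all genes whose symbol in the probe annotation begins with Krtap, taken from probe sets that name a single symbol, with the probe set of highest mean kept for each gene. They numbered 38 of 18194 genes on the array, in 22 subfamilies by the number after Krtap, 17 of them with a single member. Whole skin RNA was measured on 48 Affymetrix arrays, and 47 of them fell into 13 groups. The titles give weeks 5, 6 and 13 of treatment, and the other labels give 5/6 and 12/13. At title week 5 there were 4 sham arrays, 4 of PBS given ip and 3 of il15rb. At title week 6 there were 3 of PBS by pump, 5 of jak3i, 5 of PBS by gavage and 5 of jak12i. At title week 13 the 3 treatments and their 3 PBS controls had 3 arrays each. From what is known of the study, il15rb is an antibody that blocks the beta chain of the IL-15 receptor, jak3i is the JAK inhibitor tofacitinib and jak12i the JAK inhibitor ruxolitinib, and their vehicles were PBS ip, PBS pump and PBS gavage in that order. The labels give neither this link of agent to route nor the age, sex or graft of the mice. The array titled PBS ip, replicate 1, of week 5 is labelled IL15 under treatment, so its labels conflict and it was left out.

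Keratin associated proteins fill the space between the keratin filaments of the hair shaft and are crosslinked to them, largely through disulfide bonds. They are made late in the differentiation of the hair cortex and cuticle, so in skin their RNA is known as a sign of follicles in anagen, the growth phase of the hair cycle. By textbook composition the subfamilies were sorted into 13 high glycine-tyrosine genes (subfamilies 6, 7, 8, 19, 21 and 22), 10 high sulfur genes, 12 ultra-high sulfur genes (4, 5, 9 and 17) and 3 left unclassed (16, 28 and 31). By RefSeq position the genes lie in 5 places, with 20 on chromosome 16, 10 on chromosome 11, 5 on chromosome 7, 2 on chromosome 10 and Krtap28-13 alone on chromosome 1.

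RefSeq promoter sequences (build GRCm38.p6) were found for 36 of the 38 genes. The letters TATAAA, the core of the TATA box, stood on either strand in 29 of 36 (80.6%), against 13.6% of 32851 promoters of the same length, 300 bases. On the gene's own strand within 60 bases before the start they stood in 26 of 36 (72.2%), against 2.87% of all promoters. Another spelling, TATATAAG, which cannot overlap TATAAA and was looked for after the sequences had been seen, stood in 6 of 36 (16.7%), against 1.01%. CTTTGA was found in 10 of 36 (27.8%, against 16%) and ACGC in 9 of 36 (25%, against 55.3%), both on either strand. The 100 bases before the start are given for 6 of the genes that the results below name. They run 5′ to 3′ on the gene's strand, with TATAAA, or TATATAAG where TATAAA is missing, in capitals.
Krtap8-1, chr16:89487953-89488052, minus strand: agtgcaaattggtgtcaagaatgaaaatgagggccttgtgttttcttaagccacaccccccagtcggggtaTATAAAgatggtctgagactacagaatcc
Krtap6-5, chr16:89047900-89047999, minus strand: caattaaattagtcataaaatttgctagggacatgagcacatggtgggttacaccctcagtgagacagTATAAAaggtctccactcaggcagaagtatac
Krtap19-3, chr16:88878039-88878138, minus strand: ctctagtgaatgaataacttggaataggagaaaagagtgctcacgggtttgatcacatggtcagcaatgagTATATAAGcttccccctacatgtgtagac
Krtap4-16, chr11:99851606-99851705, minus strand: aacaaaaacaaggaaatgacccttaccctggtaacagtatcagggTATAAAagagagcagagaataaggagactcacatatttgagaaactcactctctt
Krtap5-2, chr7:142176006-142176105, minus strand: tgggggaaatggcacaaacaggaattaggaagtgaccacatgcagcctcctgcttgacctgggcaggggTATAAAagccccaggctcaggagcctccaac
Krtap5-3, chr7:142201264-142201363, plus strand: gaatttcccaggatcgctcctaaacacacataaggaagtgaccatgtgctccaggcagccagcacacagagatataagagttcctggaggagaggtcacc
The first T of TATAAA lay 29 bases before the start in Krtap8-1, 32 in Krtap6-5, 31 in Krtap5-2 and 55 in Krtap4-16. Over the 28 genes with it in these 100 bases the median was 31, with a range from 27 to 63. The window of Krtap5-3 holds neither spelling.

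Signals are log2 values, and a probe set's level was compared only with its own level in other arrays. The median over the 38 Krtap genes ranged from 5.00 to 12.08 over the 47 arrays. Some groups were low throughout or high throughout, and others held arrays of unlike level. At title week 5 the il15rb arrays had medians of 5.10, 5.04 and 5.11, PBS ip 6.27, 5.04, 5.11 and 5.02, and sham 5.08, 5.00, 5.26 and 11.21. Replicate 4 of sham stood 5.95 above the next sham array. At title week 6 the medians were 5.31, 5.11 and 5.38 for PBS pump, 5.24, 5.61, 5.28, 5.39 and 5.25 for jak3i, and 5.10, 5.08, 5.04, 5.10 and 6.80 for PBS gavage. The jak12i arrays of that week had 5.14, 11.85, 11.68, 5.42 and 5.18, so that replicates 2 and 3 were high and the other 3 low. At title week 13 PBS ip had 11.08, 7.46 and 9.29, PBS pump 10.20, 9.63 and 12.08, and PBS gavage 9.59, 8.51 and 11.26. The treated arrays of that week had 6.26, 9.31 and 5.05 for il15rb, 9.69, 10.60 and 10.90 for jak3i, and 5.08, 5.29 and 5.04 for jak12i. The jak12i group was thus the one group of title week 13 with all arrays low, and jak3i had all arrays high.

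**Figure D1:**
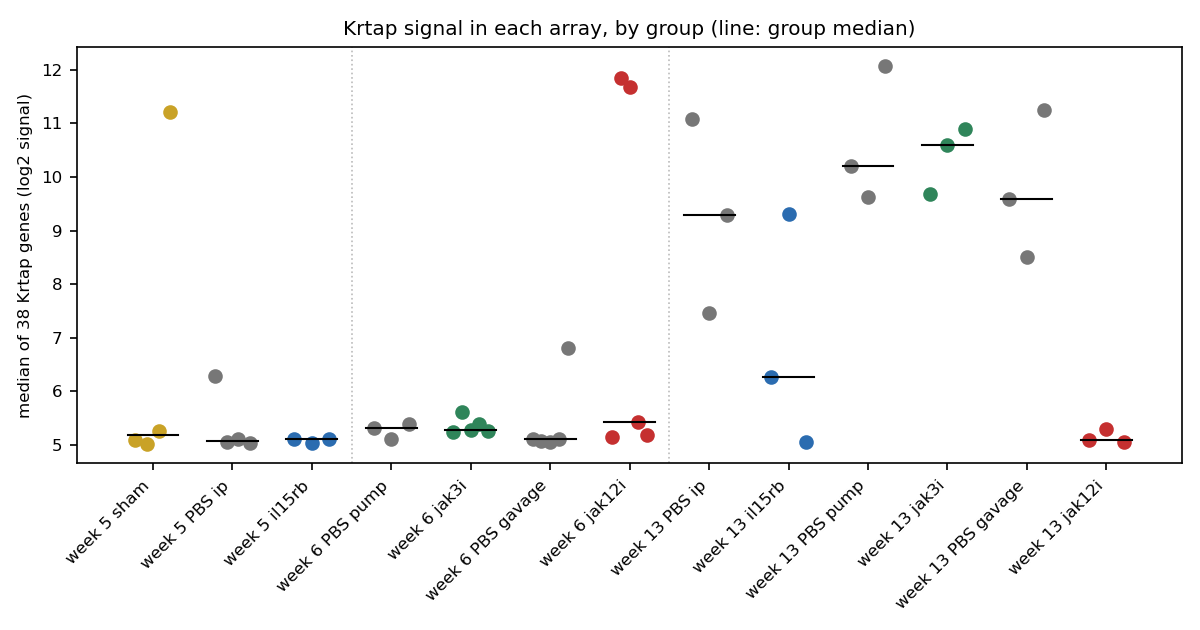
Median log2 signal of the 38 Krtap genes (vertical axis) in each of the 47 arrays, by group; each point is an array and each line a group median. The 3 jak12i arrays of title week 13 lie between 5.04 and 5.29, while their PBS gavage arrays lie between 8.51 and 11.26.

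Replicates 2 and 3 of jak12i at title week 6 were the closest of all 1081 pairs of arrays, with an SD of 0.165 for their log2 difference over genes (r = 0.996 across genes). The next closest pair had 0.182, and the other pairs of that group 0.231 to 0.390. Of 38 Krtap genes 37 were higher in replicate 2, by a median of 0.19, and they were kept as separate arrays, with the value after averaging them given beside the result. The tissue label was checked on the interfollicular epidermis list, which includes Krt5, Krt14 and Krt10 and averaged between 12.2 and 13.1 in all arrays. Arrays of one group correlated across genes between 0.973 and 0.996. Skeletal muscle genes averaged 7.94, 7.54 and 7.80 in replicate 5 of PBS gavage at title week 6, replicate 3 of PBS ip and replicate 2 of PBS pump at title week 13, against 10.7 to 13.9 in the others.

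The members moved over very different spans. Krtap6-5, a high glycine-tyrosine gene, had the largest range over the 47 arrays, 9.35 on the log2 scale, followed by Krtap19-3 with 9.08 and Krtap1-5, a high sulfur gene, with 8.90. The smallest ranges among tested genes were those of Krtap3-1 (3.49), Krtap10-4 (3.81) and Krtap12-1 (4.30), all high sulfur genes. Krtap13 was above the table's median of 6.7 in 0 arrays, ranged over 1.39, and was not tested, so 37 genes enter every count. A second probe set was present for 5 genes. For Krtap6-3 it ranged over 1.55 where the one used ranged over 8.54, for Krtap19-1 over 3.36 against 7.70, and for Krtap12-1 over 6.68 against 4.30, so these 3 genes are less certain. Many Krtap genes are near copies of each other, and probes of one member can also bind RNA of another.

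**Figure D2:**
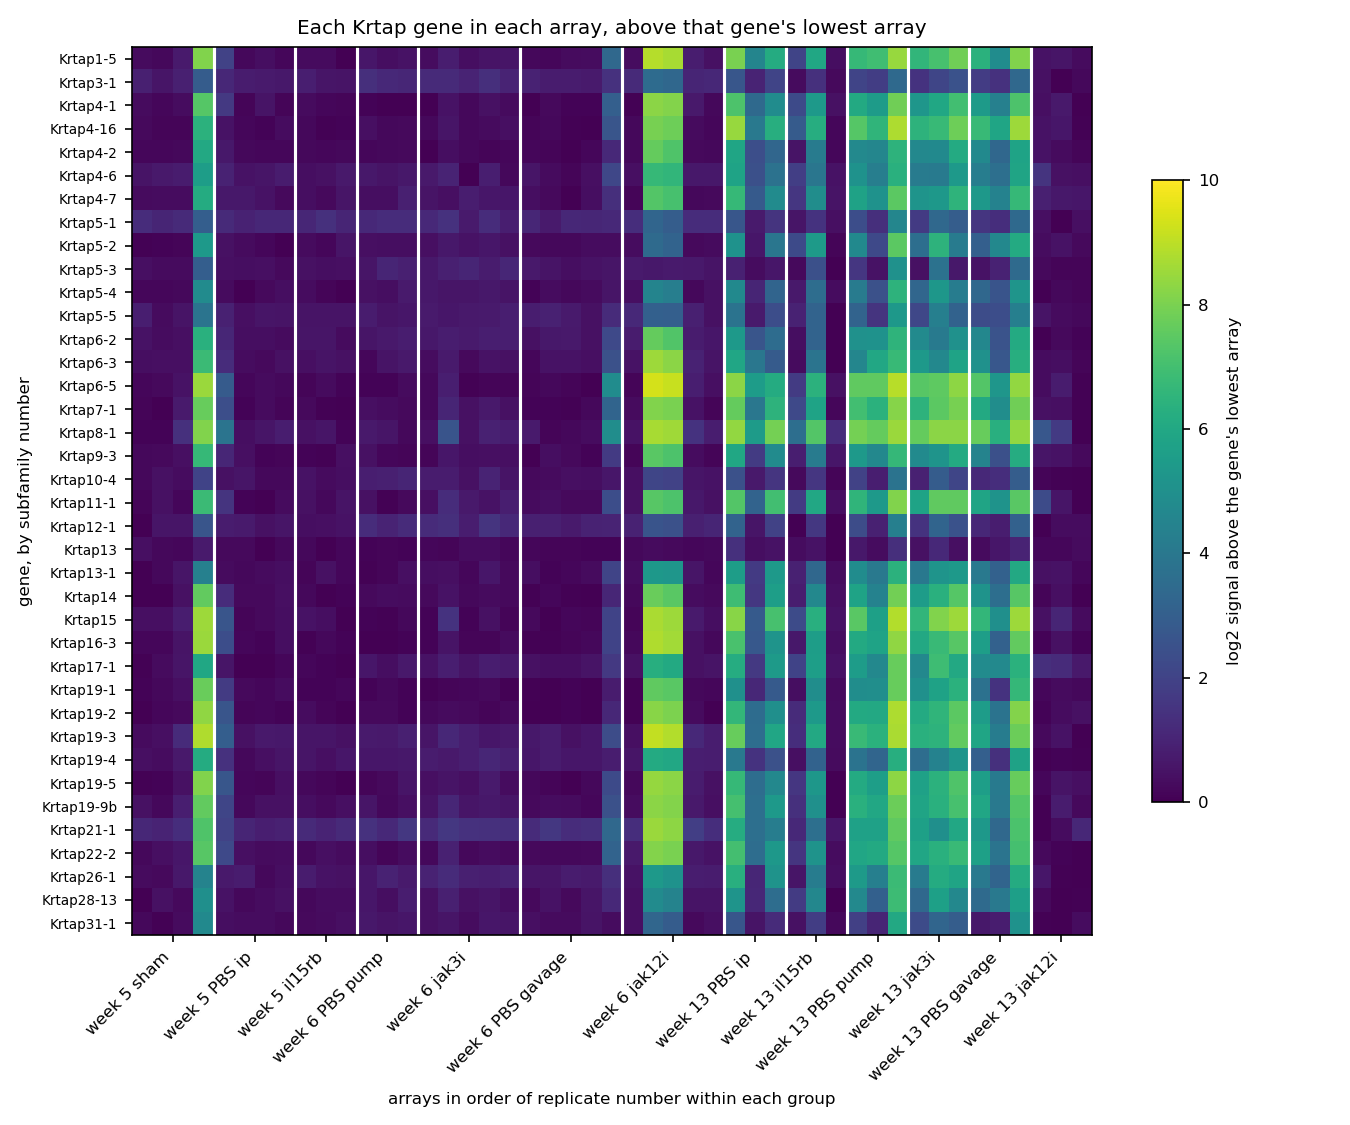
Log2 signal of each of the 38 Krtap genes (rows, by subfamily number) in each of the 47 arrays (columns, by group), as the height above that gene's lowest array. Columns are mostly dark or bright as a whole, and Krtap13 stays within 1.39 of its lowest array in every column.

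At title week 13 the Krtap genes were lower in jak12i skin than in PBS gavage skin, with called members in 19 of 22 subfamilies (all but 9, 12 and 31, of 1 tested member each). Of 37 tested genes 32 were called lower and 0 higher (limma, adjusted p under 0.05), where 10.3% of the 13650 genes tested were called lower. In all 37 every jak12i array was below every PBS gavage array, against 17.7% of all genes tested. The median difference was -4.33 on the log2 scale, from -6.66 to -1.44, and the median over all genes was 0.02. In bulk skin, fewer cells of a type and less RNA per cell cannot be told apart.

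Krtap4-16, an ultra-high sulfur gene, had the smallest p. Its signal was 4.99, 5.12 and 4.60 under jak12i and 11.26, 10.40 and 13.05 under PBS gavage, a difference of -6.66 ± 1.59 (SE; adjusted p = 0.00256, limma). Every jak12i array was more than 5 log2 units below every PBS gavage array. Krtap7-1, a high glycine-tyrosine gene, read 5.43, 5.39 and 5.05 against 11.06, 9.89 and 12.81, a difference of -5.96 ± 1.68 (adjusted p = 0.00961). Krtap28-13 read 5.11, 4.86 and 4.92 against 8.33, 8.90 and 10.50 (-4.28 ± 1.13, adjusted p = 0.00575). Both genes kept a gap of at least 3 log2 units between the groups. The high sulfur genes Krtap26-1 and Krtap13-1 fell by 4.25 ± 1.15 and 4.03 ± 1.11 on the log2 scale (adjusted p = 0.00716 and 0.00815). Krtap3-1, which varied little over the arrays, still separated the groups, with 6.68, 6.24 and 6.44 against 8.02, 7.67 and 9.61 (-1.98 ± 0.56, adjusted p = 0.00971). Krtap6-5 fell by 6.61 ± 1.89 and Krtap8-1 by 5.98 ± 1.78 (adjusted p = 0.0107 and 0.0139), and the Krtap8-1 array of replicate 1 stayed at 8.07 where the other jak12i arrays had 7.07 and 5.36.

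By class, 12 of 13 high glycine-tyrosine genes, 8 of 9 high sulfur genes, 10 of 12 ultra-high sulfur genes and 2 of 3 unclassed genes were called lower, with medians of -5.42, -4.25, -4.07 and -4.28. The 5 genes that were not called were Krtap5-3 (-1.44, adjusted p = 0.185), Krtap9-3 (-3.93, 0.0532), Krtap12-1 (-1.46, 0.102), Krtap19-1 (-3.72, 0.101) and Krtap31-1 (-2.05, 0.144). In 22 of the 37 genes the jak12i mean was under 5.38, near background (no array of that week had a higher lower quartile), where a log2 difference is a lower limit of the change. The count rests on few arrays: without replicate 3 of PBS gavage, the array of highest Krtap signal in its group, 1 gene was called, Krtap4-16 (-5.92, adjusted p = 0.0268; 10.6% of all genes called either way), while the median was -3.67. Without replicate 3 of jak12i 16 were called (15.1% of all genes), with a median of -4.32.

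**Figure D3:**
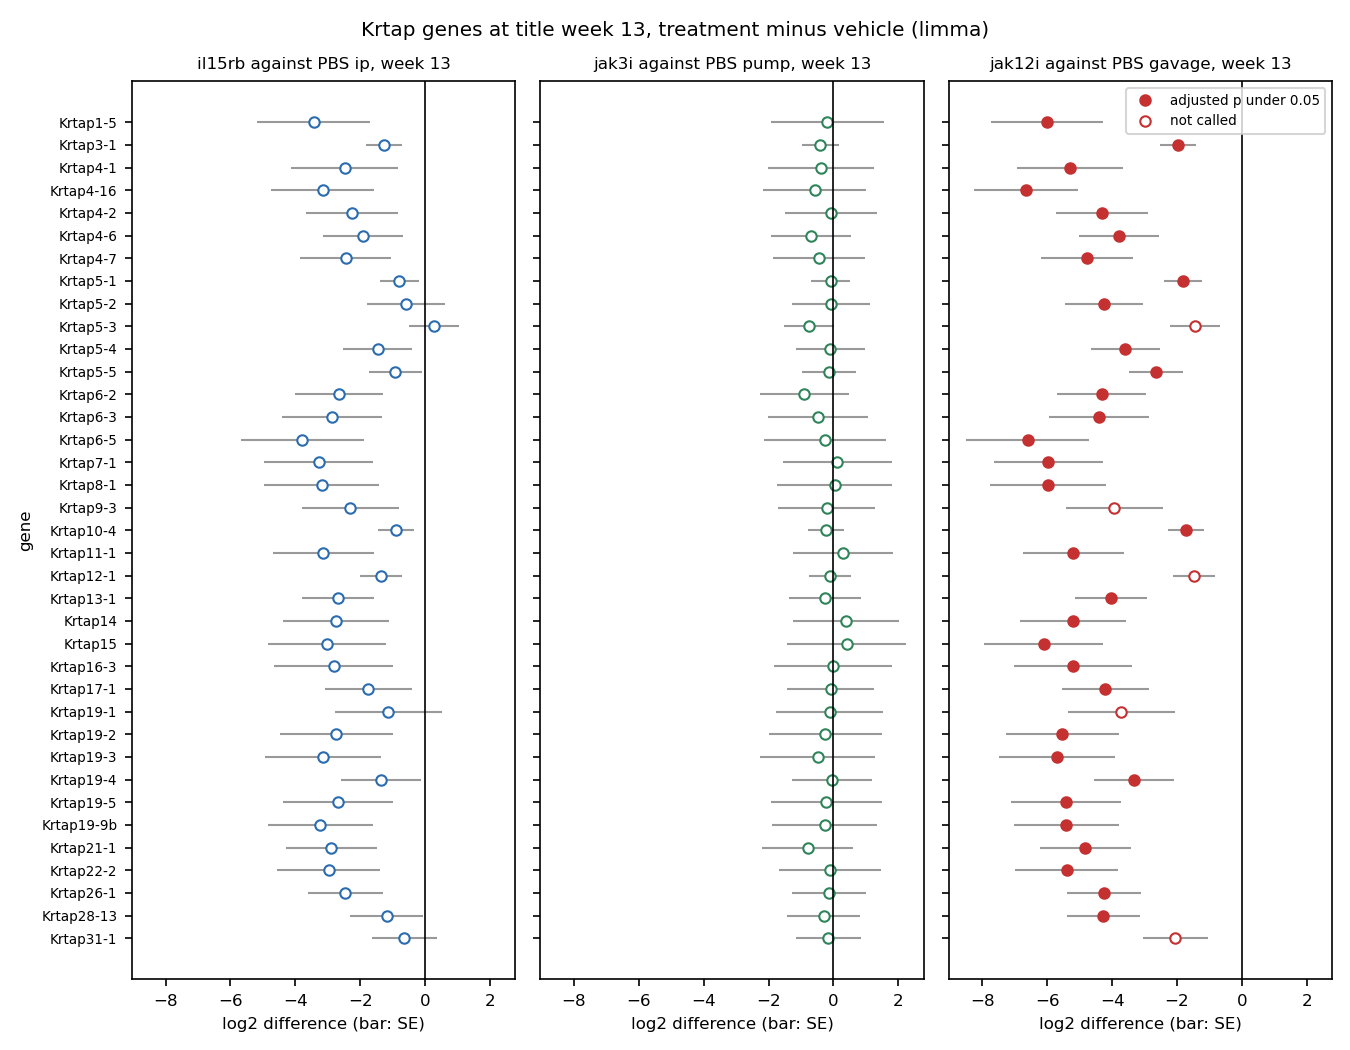
Log2 difference, treatment minus vehicle, of the 37 tested Krtap genes at title week 13 for il15rb, jak3i and jak12i; bars are SE from limma and filled points have an adjusted p under 0.05. Filled points appear in the jak12i panel, where 32 genes are called, and in neither other panel.

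In jak3i skin of title week 13 the Krtap genes were high in all 3 arrays, as in PBS pump skin, and no difference was called. Of 37 genes 0 were called in either direction by limma and 0 had an unadjusted p under 0.05, where 16% and 29.8% of all genes did, and the median difference was -0.19 (all genes 0.03). Krtap8-1 read 13.02, 13.63 and 13.62 under jak3i and 13.27, 13.00 and 13.87 under PBS pump. Its difference was 0.04 ± 1.78, with a 95% interval from -3.56 to 3.64, which is as wide as many of the differences seen under jak12i. That SE rests on a spread shared over all 13 groups, and the arrays printed for this gene lie closer together. Krtap4-16 differed by -0.58 ± 1.59 (adjusted p = 0.855). The smallest p was that of Krtap5-3, which read 5.13, 8.44 and 5.33 against 6.26, 5.19 and 9.76 (-0.77 ± 0.77, adjusted p = 0.553), with 1 high array in each group.

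In il15rb skin of title week 13 the Krtap genes were mostly lower than in PBS ip skin, but the arrays of both groups were far apart. Limma called 0 of 37 genes in either direction, where 25.7% of all genes were called, and 6 had an unadjusted p under 0.05 (36.9% of all genes). The median difference was -2.48 (all genes 0.01), from -3.79 to 0.27. Krtap13-1 read 6.53, 8.95 and 5.94 under il15rb and 11.17, 7.31 and 11.03 under PBS ip (-2.70 ± 1.11, adjusted p = 0.0691). Replicate 2 was the highest il15rb array and replicate 2 of PBS ip the lowest of its group, and the groups overlapped there. Krtap26-1 behaved alike, with 5.86, 9.50 and 5.66 against 11.60, 6.38 and 10.43 (-2.46 ± 1.15, adjusted p = 0.113). Without il15rb replicate 2 the count was 9 of 37, where 23.6% of all genes were called, and without PBS ip replicate 2 it was 5, where 32.1% were.

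The difference between the jak12i and the jak3i effect at title week 13, each against its own vehicle, was tested as a contrast added after the data were seen. It called 0 of 37 genes (limma, 0.00733% of all genes called), although 25 had an unadjusted p under 0.05 (6.59% of all genes), and the median was -4.13. Krtap4-16 had -6.09 ± 2.25 (adjusted p = 0.639) and Krtap7-1 -6.08 ± 2.37 (adjusted p = 0.642). With PBS arrays of all routes as the control on both sides, the vehicle cancels, and the contrast becomes jak12i against jak3i directly. It then called 17 of 37 genes, against 1.12% of all genes, and does not bear on effects against each route's own vehicle. The 2 inhibitors were given by different routes, and doses are not in the labels.

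At title week 6, 0 of 37 Krtap genes were called between jak12i and PBS gavage by limma, where 9.58% of all genes were called, and 24 had an unadjusted p under 0.05 (25.5% of all genes). The groups did not overlap in 1 gene, Krtap5-1, higher under jak12i (1.74% of all genes). The median difference was 2.54 (all genes -0.03), the opposite sign of title week 13, and replicates 2 and 3 alone were high. Krtap4-2, an ultra-high sulfur gene, read 4.36, 11.79, 11.40, 4.41 and 4.39 under jak12i and 4.35, 4.28, 4.16, 4.35 and 5.33 under PBS gavage (2.78 ± 1.10, adjusted p = 0.104). Krtap6-3 read 5.00, 13.05, 12.79, 5.46 and 5.04 against 4.70, 5.01, 4.99, 4.93 and 7.0 (2.94 ± 1.19, adjusted p = 0.112). In both genes 3 jak12i arrays lay at the level of the vehicle. Krtap5-3 stayed low in the high arrays too, at 5.35 and 5.42, while Krtap5-2 of the same subfamily reached 8.16 and 7.91. With replicates 2 and 3 averaged into 1 sample the median was 1.51, and with the 3 arrays of high Krtap signal (these and sham replicate 4) left out it was -0.15. Without jak12i replicate 4, a low array, Krtap3-1 and Krtap4-2 were called, where 9.63% of all genes were. Without replicate 5, also low, Krtap4-2 and Krtap6-3 were called, where 9.56% of all genes were. For jak3i against PBS pump limma called 0 of 37 genes, with 0 at an unadjusted p under 0.05 (4.1% and 15.9% of all genes), and the median difference was 0.07. The SEs, from a spread shared over all groups, were 0.49 to 1.69, where the median SD was 0.16 in jak3i and 0.11 in PBS pump. Differences well beyond the spread of these groups could thus go uncalled. Only Krtap19-4 did not overlap, higher under jak3i (2.45% of all genes). Krtap8-1 read 5.78, 7.95, 5.82, 6.27 and 6.15 under jak3i and 6.06, 5.94 and 5.59 under PBS pump (0.53 ± 1.59, adjusted p = 0.937), with replicate 2 above the rest.

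The change of the jak12i effect between the weeks was tested directly. Of 37 genes 34 had a lower effect at title week 13 than at title week 6 (limma, adjusted p under 0.05), where 5.56% of all genes did, and the median change was -7.08. In each of both weeks 22 of 37 genes had a group mean near background, so the sizes of these changes are limited by the floor, and a fall below the vehicle at title week 6 could not have been seen in such genes. Krtap4-16 changed by -9.35 ± 2.01 (adjusted p = 0.00180), Krtap3-1 by -3.08 ± 0.71 (adjusted p = 0.00312) and Krtap21-1, a high glycine-tyrosine gene, by -7.30 ± 1.78 (adjusted p = 0.00481). All 13 high glycine-tyrosine genes, 11 of 12 ultra-high sulfur, 8 of 9 high sulfur and 2 of 3 unclassed genes were called. With the week 6 pair averaged the count was 33, and without the 3 arrays of high signal 30 (12.9% and 9.01% of all genes called either way). The same contrast called 0 of 37 genes for il15rb, week 13 against week 5 (10.6% of all genes called, and 0 against 27.3% at an unadjusted p under 0.05), and 0 of 37 for jak3i, week 13 against week 6 (9.18% of all genes called, and 0 against 23.9% at an unadjusted p under 0.05).

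At title week 5, limma called 0 of 37 Krtap genes between il15rb and PBS ip, with 0 at an unadjusted p under 0.05 (0.0733% and 4.02% of all genes). The SEs, from the spread shared over all groups, were 0.52 to 1.77, where the median SD was 0.11 in il15rb and 0.41 in PBS ip. Differences beyond the spread of most genes in these groups could thus go uncalled. The median difference was -0.15, and Krtap14 and Krtap19-1 did not overlap, lower under il15rb (4.3% of all genes). Krtap8-1 read 5.82, 5.92 and 5.47 under il15rb and 9.20, 5.75, 5.94 and 6.17 under PBS ip (-1.03 ± 1.66, adjusted p = 1.0), and replicate 2 of PBS ip alone was high. Between PBS ip and sham 0 of 37 were called (limma, 0 at an unadjusted p under 0.05, against 0.0293% and 5.01% of all genes), with a median difference of -1.35. Krtap17-1, an ultra-high sulfur gene, read 5.35, 4.81, 4.81 and 4.96 under PBS ip and 4.85, 5.06, 5.34 and 10.74 in sham (-1.52 ± 1.16, adjusted p = 1.0). Replicate 4 of sham alone was high, and without it the median over the genes was 0.16.

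Some arrays were neither low nor high, and in them the Krtap genes were raised unequally. As a description, each gene was set against its mean in the low group of the same week (il15rb at title week 5, PBS pump at 6, jak12i at 13), groups chosen after the values were seen. Most probe sets were near background in these low groups (23 of 37 in the week 5 comparison of il15rb), and their floors and spans differ, so the order of genes and classes below also depends on the probes. In replicate 2 of PBS ip at title week 5, 15 of 38 genes stood 1 log2 unit or more above it. The high glycine-tyrosine genes stood above by a median of 1.90 (9 of 13 by 1 or more), the high sulfur genes by 0.40 and the ultra-high sulfur genes by 0.39 (1 of 12). Krtap8-1 stood highest, at 3.46, and Krtap6-5 was second. In replicate 2 of PBS ip at title week 13 the medians were 3.31, 1.10 and 1.11, again highest for the high glycine-tyrosine genes. There Krtap6-5 stood at 5.17 above and Krtap5-2 at 0.25.

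Replicate 5 of PBS gavage at title week 6 had 20 genes up by 1 or more, led by Krtap6-5 with 4.71 and Krtap8-1 with 4.40. The medians were 1.98 for high glycine-tyrosine, 0.69 for high sulfur and 0.88 for ultra-high sulfur genes, and Krtap5-2 stayed at -0.07. This array was also one of low skeletal muscle signal, and the part of that in the result was not tested. Replicate 1 of il15rb at title week 13 had another leading gene, and class medians of 1.04 for high glycine-tyrosine, 0.73 for ultra-high sulfur and 0.45 for high sulfur genes. Its 14 genes up by 1 or more were led by the ultra-high sulfur gene Krtap4-16 with 2.5, then Krtap8-1 with 2.13, and Krtap5-2 stood at 1.91 where Krtap6-3 stood at 0.02. In replicate 2 of jak3i at title week 6 only Krtap8-1 (2.08), Krtap15 (1.32) and Krtap11-1 (1.02) stood 1 or more above. Krtap8-1 was among the 2 most raised genes in each of these 5 arrays except replicate 2 of PBS ip at title week 13, where Krtap6-5 and Krtap1-5 stood above it.

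**Figure D4:**
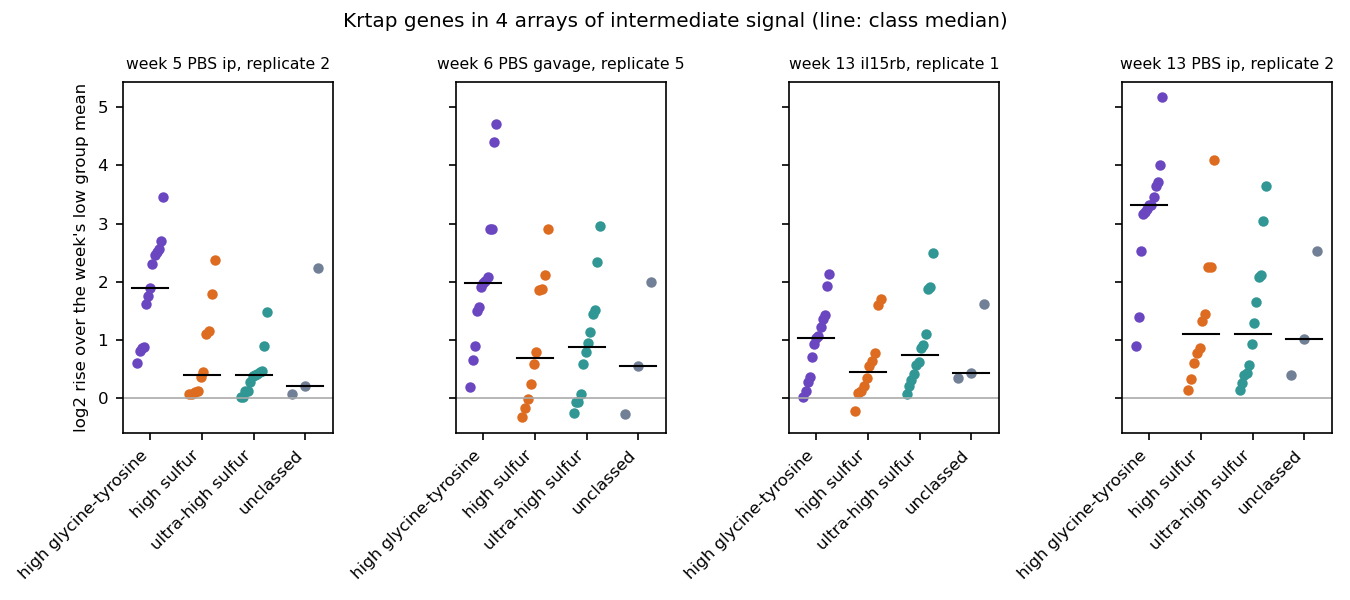
Rise of each Krtap gene over its mean in the low group of the same week (log2, vertical axis) in 4 arrays of intermediate signal, by textbook class; lines are class medians. In replicate 2 of PBS ip the high glycine-tyrosine median is 1.90 at title week 5 and 3.31 at title week 13, above the medians of both sulfur classes.

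The high glycine-tyrosine median was also the highest in arrays of full signal, with 7.57 in sham replicate 4 and 7.87 in jak12i replicate 2 of title week 6, against 4.02 and 4.88 for high sulfur and 5.42 and 5.90 for ultra-high sulfur genes. In replicate 3 of PBS ip at title week 13 it was 4.68 and the high sulfur median 4.98. Sham replicate 4 and jak12i replicate 2 differed in single genes as well. Krtap31-1 stood 4.43 above the low group in sham replicate 4 and by 2.72 in jak12i replicate 2 of title week 6, and Krtap5-2 by 5.03 and 3.05. Krtap5-3 was at 2.60 in the first and at -0.18 in the second. In replicate 3 of PBS pump at title week 13 all 38 genes stood 1 or more above.

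Other genes of the hair shaft and its sheath were lower in the comparison of jak12i with PBS gavage at title week 13, where 10.3% of all genes were called lower. At title week 13, 10 of 12 hair shaft keratins fell under jak12i (median -3.26), among them Krt34 (-4.97 ± 1.36, adjusted p = 0.00773, limma) and Krt86 (-5.36 ± 1.54, adjusted p = 0.0109). Of the inner root sheath genes, which form the sleeve around the growing shaft, 6 of 8 fell, and Krt71 fell by 4.36 ± 1.21 on the log2 scale. Of the enzymes and proteins of crosslinking 3 of 5 fell, with Padi3, which converts arginine to citrulline in hair proteins, at -4.02 ± 0.96 (adjusted p = 0.00261). Of the regulators of the hair matrix 6 of 10 fell under jak12i. Under il15rb 3 of 10 fell and under jak3i 1 of 10 (10.6% and 6.32% of all genes fell). Hoxc13, a transcription factor known to switch on hair keratin and Krtap genes, read 6.90, 7.20 and 7.01 under jak12i and 7.96, 8.10 and 8.51 under PBS gavage. Its groups did not overlap, but it was not called (-1.15 ± 0.45, adjusted p = 0.0598), nor was Foxn1, the factor missing in nude mice (-0.72 ± 0.37, adjusted p = 0.161). Krt15 of the resting follicle list rose by 1.31 ± 0.19 under jak12i (adjusted p = 5.57e-06, limma). In that list 5 of 7 genes rose under each of jak12i, il15rb and jak3i (medians 0.85, 0.73 and 0.71), and 1 fell under il15rb. Of all genes 11.6%, 15.1% and 9.66% rose in that order.

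Immune genes fell in all 3 comparisons of title week 13 (10.6%, 6.32% and 10.3% of all genes fell under il15rb, jak3i and jak12i). Cytotoxic lymphocyte genes fell in 7 of 7 and interferon gamma response genes in 9 of 9 under each of il15rb, jak3i and jak12i, and T cell genes in 7, 6 and 4 of 7. Gzma, a granzyme of killer cells, fell by 4.89 ± 0.46, 5.61 ± 0.46 and 4.35 ± 0.46 in that order. Hair shaft keratins were called in 0 of 12 under il15rb (median -1.83) and 0 of 12 under jak3i (median 0.08). The jak12i effect minus the jak3i effect was called in 0 of 12 of them (median -3.45), and the difference from il15rb was not tested. Cell division genes fell in 8 of 9 under jak12i (median -1.07). They had medians of -0.57 under il15rb and -0.55 under jak3i with 0 of 9 called, and the jak12i minus jak3i difference was called in 0 of 9. Melanocyte genes, which mark pigment cells of the growing follicle, were called in 0 of 6 in each. Interfollicular epidermis genes fell in 3 of 7 under jak12i, among them Flg (-1.62 ± 0.30, adjusted p = 0.000148, limma). Under il15rb 2 of 7 of them fell and 1 rose, and under jak3i 0 of 7 were called. Of all genes 15.1% rose under il15rb, 9.66% under jak3i and 11.6% under jak12i. Adipocyte genes rose in 4 of 4 under jak12i and il15rb and in 3 of 4 under jak3i. Skeletal muscle genes rose in 8 of 9 under il15rb, 1 of 9 under jak3i and 0 of 9 under jak12i. Their mean signal was 7.54, 10.73 and 12.87 in the PBS ip arrays, lowest in replicate 3, against 13.24 to 13.64 under il15rb. In PBS pump it was 7.80, 11.78 and 12.74, against 13.17 to 13.24 under jak3i. In PBS gavage it was 12.72 to 13.01, against 12.45 to 13.76 under jak12i. The part of both lists in the Krtap values was not tested.

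**Figure D5:**
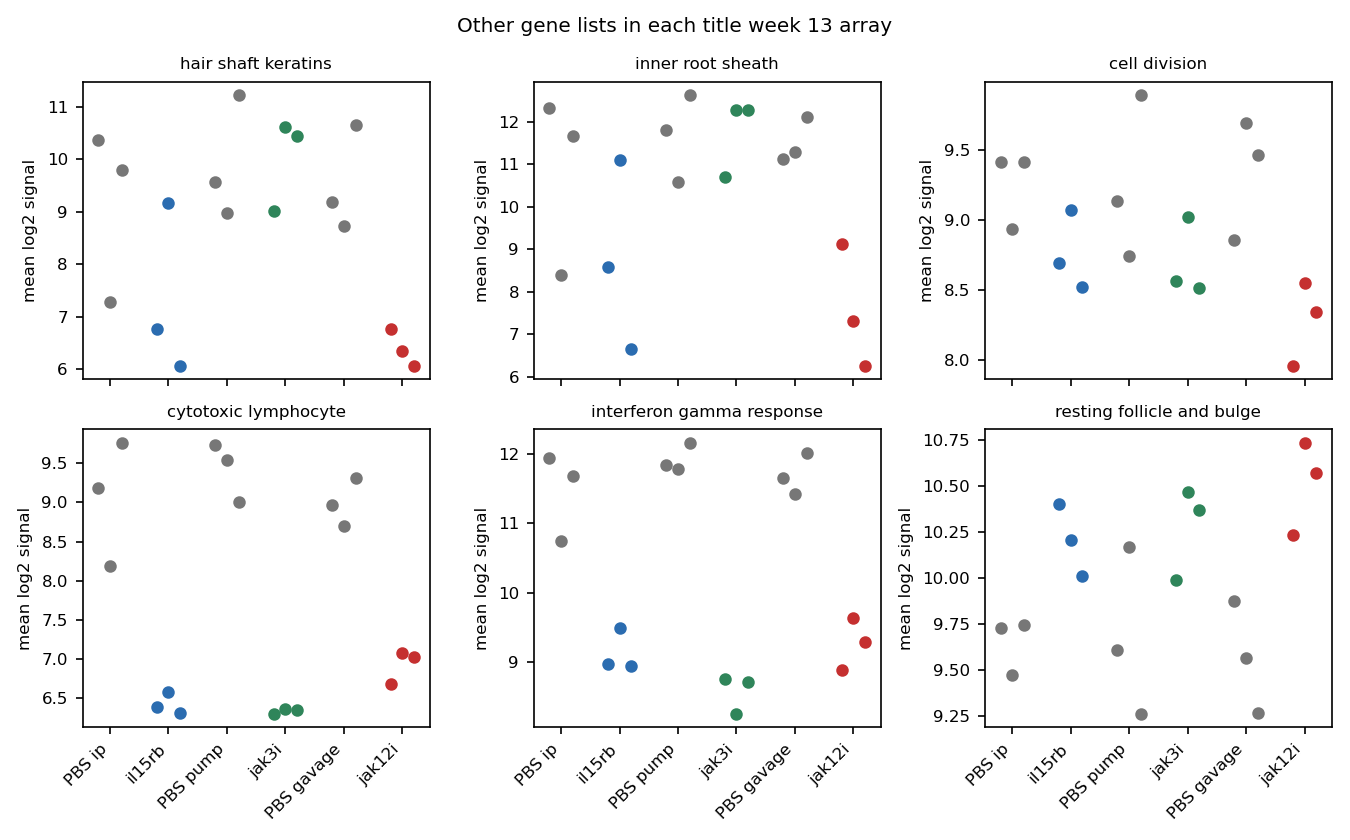
Mean log2 signal of 6 other gene lists (panels) in each array of title week 13, by group. Hair shaft keratins are between 6.07 and 6.78 in the 3 jak12i arrays and between 9.01 and 10.61 in the 3 jak3i arrays, while cytotoxic lymphocyte genes are at most 7.08 in treated arrays and at least 8.18 in PBS arrays.

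At title week 6 the high jak12i arrays 2 and 3 had hair shaft keratins at 10.34 and 10.12 and inner root sheath genes at 11.97 and 11.75, against at most 6.52 for both lists in the other 3 arrays of the group. Their cell division genes were at 7.27 and 7.22 and their melanocyte genes at 6.85 and 6.84. Replicate 4 of sham had 9.99 for hair shaft keratins and 11.43 for inner root sheath genes, with cell division at 8.69 and melanocyte genes at 8.05.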

How the data were processed

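The values are log2 signals as deposited by the authors, for 45101 probe sets on each of 48 Affymetrix arrays. The method was RMA, per the submitters' processing notes, and its version is not given in the sources used here. Biotin labelling of the RNA used in vitro transcription, per the labels. Whether all arrays were normalized together is not given in the sources used here, so treatments were compared with controls within a title week. Ranges over the 47 arrays, the filter and the shared spread do cross weeks. The lower quartiles of the arrays were 5.33 to 5.43, 5.46 to 5.61 and 5.31 to 5.38 at title weeks 5, 6 and 13. The upper quartiles were 8.47 to 8.68, 8.15 to 8.35 and 8.68 to 8.78 in that order. Probe sets naming 1 symbol numbered 34958 (932 named several, 9211 none). Of these, 34754 matched a RefSeq gene by Entrez number and took its symbol, except that Krtap symbols were kept as annotated. The probe sets naming several symbols were left out, and 6 of them had a Krtap among their symbols. A gene was tested if 3 or more arrays exceeded the median of the whole table, 6.7, which left 13650. A model with a mean for each group was fitted to 47 arrays with limma 3.58.1 (R 4.3.3), with Benjamini-Hochberg adjustment over all genes tested at 0.05. The fit was tested on simulated data with independent genes, each of equal spread in all groups. That test does not bear on the unequal spread of the Krtap genes between groups.

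Members, lists and comparisons were chosen with earlier results of these data known. Named were the member of highest mean in each subfamily, up to 6 called members of smallest p per comparison (3 of smallest p where none was called), the 3 largest and 3 smallest ranges, Hoxc13, Foxn1 and up to 2 called genes per list and comparison. Other members and listed genes were chosen after their values were seen. Protein composition was not analysed here, and classes follow textbook subfamily numbers, chosen after the files were seen. Arrays that share a replicate number were not paired, since their deviations from the group means correlated from -0.492 to 0.236. Spread between arrays is all that the p-values reflect, and each gene's spread was shared over all 13 groups. The median SD of Krtap genes was 3.81 in jak12i of title week 6 and 3.01 in sham. It was 0.11 in PBS pump of title week 6 and 0.18 in jak12i of title week 13. An SE can therefore differ much from the spread of the groups compared, and the number of arrays limits the precision. Alternatives covered normalization, the filter, probe sets, the arrays fitted, a replicate block, other controls and leaving out arrays.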

Additional observations from a re-analysis of the deposited data

Results flagged for a closer look

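In 3 groups of title weeks 5 and 6 a single array stood apart in the median over the Krtap genes: replicate 2 of PBS ip at title week 5 with 6.27, replicate 4 of sham at title week 5 with 11.2 and replicate 5 of PBS gavage at title week 6 with 6.80. The gap to the nearest array, set against the range of the group, was beyond the 95% critical value of Dixon's test. Of 31 named Krtap genes, 30 had an array that far apart in sham, 24 in PBS gavage at title week 6, 15 in PBS ip at title week 5, 6 in jak3i and 0 in jak12i at title week 6. It was a high array except for Krtap5-1 in PBS gavage, with replicate 2 low, and Krtap5-3 in PBS ip, with replicate 5 low. Chance gives about 5% of groups, and the genes share their arrays. Groups of 3 arrays, which include all of title week 13, were not examined in this way. In jak12i at title week 6 replicates 2 and 3 were both high (11.85 and 11.68), so a gap to the nearest array could not flag either of them.

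The jak12i effect on Krtap genes differed between title week 13 and title week 6 in 34 of 37 genes by a test of the difference itself (limma, adjusted p under 0.05). All 34 had a lower effect at title week 13, against 5.56% of all genes tested. At title week 6 replicates 2 and 3 of jak12i alone were high. In each week 22 of 37 genes had a group mean near background. The same contrast called 12 of 12 hair shaft keratins and 8 of 8 inner root sheath genes lower.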

How the results depend on the processing

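The 32 Krtap genes called lower under jak12i at title week 13 became 1 to 33 when each array was left out in turn (10.6% to 20.8% of all genes called either way). They became 28 to 36 under the other settings. Of all genes, 15.1% were called with only the arrays of that week in the fit and 33.7% with PBS of all routes. The shares under the remaining settings are not given here. The 34 calls of the change between weeks became 26 to 35 on leaving out arrays (7.99% to 17.8% of all genes called either way). For il15rb at title week 13 the count of 0 became 2 with only the arrays of that week in the fit (18.5% of all genes called). It became 24 with PBS of all routes as the control (30.5% of all genes called) and 0 to 9 on leaving out arrays (13.2% to 32.1% of all genes called). For jak12i at title week 6 it became 0 to 2 on leaving out arrays (5.66% to 10.4% of all genes called). The jak12i effect minus the jak3i effect gave 17 with PBS of all routes (1.12% of all genes), where the vehicle cancels and jak12i is set against jak3i directly. Medians on leaving out arrays ran from -1.95 to 0.16 for PBS ip against sham, 1.47 to 3.26 for jak12i at title week 6, -3.71 to -1.50 for il15rb and -0.74 to 0.58 for jak3i at title week 13, and -5.27 to -3.67 for jak12i. With the 3 arrays of high Krtap signal left out, an alternative added after seeing the data, the jak12i median at title week 6 was -0.147.

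The replicate block within the title week gave 31 calls for jak12i at title week 13, and the share of all genes called under it is not given here. It moved the medians to 0.776 for il15rb at title week 5 and 0.556 for jak3i at title week 6. It turned Krtap8-1, Krtap19-5 and Krtap19-3 to 0.154, 0.537 and 0.704 (il15rb, title week 5). PBS of all routes turned Krtap10-4 to 0.118 (jak3i, title week 6), Krtap5-3 and Krtap6-2 to 0.0674 and 0.0384 (jak3i, title week 13) and Krtap6-2 to 0.0889 in the jak3i change between weeks. On leaving out arrays, Krtap5-4 ran from -1.53 to 0.0288 and Krtap21-1 from -2.03 to 0.0541 (PBS ip against sham), positive without sham replicate 4, and likewise without the 3 high arrays, where Krtap4-2 and Krtap6-3 turned to -0.108 and -0.161 (jak12i, title week 6). Krtap5-3 ran from -1.84 to 0.579 and Krtap3-1 from -0.717 to 0.0950 (jak3i, title week 13), and from -1.89 to 0.530 and -0.673 to 0.139 in the change between weeks, positive without PBS pump replicate 3. None of these reversed values was called, and the cause was not tested. Of the other results for single genes 702 kept direction and call, 15 gained a call and 5 lost one. With 3 to 5 arrays a group, and a spread shared over groups of unequal spread, differences of a few log2 units can go uncalled.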
